A study of Mus musculus and Homo sapiens
Mus musculus with 16 samples.

Results

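The genes described here are 7 transcription factor genes of the ganglionic eminences other than the Dlx genes: Gsx2, Gsx1, Sp8, Sp9, Nkx2-1, Lhx6 and Lhx8. The genes were chosen by name and not by a threshold on a measured value, and the interactions taken for each were those in which either 10 kb bin overlapped its body on the mouse genome build mm10. These 7 genes, of 20665 autosomal protein-coding genes, accounted for 285 of the 106573 interactions listed over 4 libraries. The libraries were H3K4me3 PLAC-seq of mouse fetal forebrain, 2 from embryonic stage E16.5 and 2 from E12.5. PLAC-seq ligates DNA fragments held near each other in the crosslinked nucleus and uses an antibody to keep those that carry a histone mark, here a mark of active and poised promoters. The series has 16 samples, and the other 12, from single cells of a mix of cells, of adult cortex and of fetal forebrain, are not analysed here. The labels of the PLAC-seq libraries give whole frozen forebrain with no genetic change or treatment, and do not name a strain, a sex or the number of embryos per library.

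The ganglionic eminences are the ventral swellings of the embryonic telencephalon whose progenitors produce the GABAergic neurons of the striatum and pallidum and the interneurons that migrate into the cortex. The homeobox genes Gsx2 and Gsx1 act in progenitors of the lateral and caudal eminences, upstream of the Dlx genes. The zinc finger genes Sp8 and Sp9 act in dividing progenitors and newborn neurons of these eminences, including neurons bound for the olfactory bulb and striatum. Nkx2-1 specifies the medial eminence, where it acts upstream of the LIM-homeobox genes Lhx6, needed for cortical interneurons, and Lhx8, needed for cholinergic neurons of the basal forebrain. Forebrain tissue mixes these cells with those of the pallium, so a smaller share of cells of a type and less signal per cell cannot be told apart in any value below. Nor do the libraries show in which of these cells a contact of a member, Sp8 included, was formed.

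The promoters of Sp8 and Sp9, the 2 members with the most contacts, carry a shared run of letters. The 250 bases before the start that holds this run are printed for both from RefSeq (GRCm38.p6, the same primary sequence as mm10), 5′ to 3′, at chr12:118846983-118847232 on the plus strand for Sp8 and at chr2:73271676-73271925 on the plus strand for Sp9, with the run in capitals.
Sp8: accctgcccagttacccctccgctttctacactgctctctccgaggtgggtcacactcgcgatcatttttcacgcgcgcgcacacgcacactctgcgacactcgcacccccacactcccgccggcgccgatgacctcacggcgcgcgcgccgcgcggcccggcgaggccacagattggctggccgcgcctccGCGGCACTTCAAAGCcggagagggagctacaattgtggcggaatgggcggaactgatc
Sp9: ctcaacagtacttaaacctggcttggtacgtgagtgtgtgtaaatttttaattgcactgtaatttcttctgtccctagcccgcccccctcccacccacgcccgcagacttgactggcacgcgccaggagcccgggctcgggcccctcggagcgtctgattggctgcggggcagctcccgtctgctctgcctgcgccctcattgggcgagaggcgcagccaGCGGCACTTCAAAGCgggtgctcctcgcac
The run of 15 bases lay 58 to 44 bases before the Sp8 start and 30 to 16 bases before the Sp9 start. The run was picked as the longest shared by the Sp9 window and any of the 3 Sp8 windows, so its presence in both was set by the search. Of 32851 RefSeq windows of this length from 27025 genes, only these 2 held it. A given run of 15 bases is rare in any case, so its absence elsewhere does not mark it as an element of these promoters. The printed Sp8 window was 67.2% G or C with 32 CG dinucleotides and the Sp9 window 62.4% with 18, against a median of 52.4% G or C over all windows. The windows of the other Sp8 starts were 40.8% with 1 and 50% with 6, below that median. The letters CCAAT, searched on both strands, were in both windows and in those of Lhx6, and in 33.8% of all windows. Sp8 has 3 annotated starts and Lhx6 has 3, so the 7 genes had 11 windows. A match is a description of the letters and not of a bound site.

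The E16.5 libraries listed 35291 and 36794 interactions, against 18413 and 16075 in the E12.5 libraries, supported by 892987 and 911710 read pairs at E16.5 and by 446855 and 405491 at E12.5. By the authors' model, a listed interaction had an FDR under 0.01 and a count no less than 2 times the expected one, and the bins lay 20 to 1000 kb apart. The full sequencing depth is unknown, and an unlisted bin pair is one that did not pass the authors' threshold, not one without contact. Contact number is the number of listed interactions of a gene body, tested relative to the library's total over genes. Contact strength is the number of read pairs of a bin pair listed in all 4 libraries. Wherever a value is given relative to the library total, that total was scaled by TMM, a trimmed mean of log ratios between libraries. The library total alone is the total without TMM. The labels do not say whether the 2 libraries of a stage had different litters as their source, so the spread that p-values rest on may be technical. Interactions at 6 forebrain marker genes, among them Six3, Lhx2 and Emx2, summed to 279 and 275 at E16.5 and 301 and 310 at E12.5. The midbrain and hindbrain markers summed to 33 and 27 at E16.5 and 49 and 29 at E12.5. Of these, En1 had 12 and 9 at E16.5 and 7 and 6 at E12.5, and Hoxa2 had 3 and 4 and then 3 and 2. Pax2 had 10 and 9 at E16.5 and 18 and 12 at E12.5, and Gbx2 had 8 and 5 and then 13 and 7. Hoxb2 had 0 and 0 at E16.5 and 8 and 2 at E12.5, and En2 was at 0 in every library. Of the markers of other cells, the 4 endothelial genes were at 0 throughout, microglial genes summed to 1 and 1 at E16.5 and 3 and 2 at E12.5, erythroid genes to 0 and 1 at E16.5 and 1 and 0 at E12.5, and meningeal genes to 28 and 15 at E16.5 and 18 and 17 at E12.5.

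Relative to the library total, Sp8 had fewer listed interactions at E16.5 than at E12.5, and it was the 1 member of 6 tested that passed the threshold. The other 5, Sp9, Gsx1, Nkx2-1, Lhx6 and Lhx8, did not pass in either direction, and Gsx2, with 5 interactions in all, was below the minimum of 10 for a test. Over all 4036 genes tested, 3.49% were lower at E16.5 and 11.0% higher, so 14.5% passed in either direction at an adjusted p of 0.05 in the quasi-likelihood test of edgeR. The median log2 change was -0.37 over the 6 members and 0.25 over all genes tested. The scaling set that level in part, since the median of all genes was 0.11 with the library total alone.

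**Figure D1:**
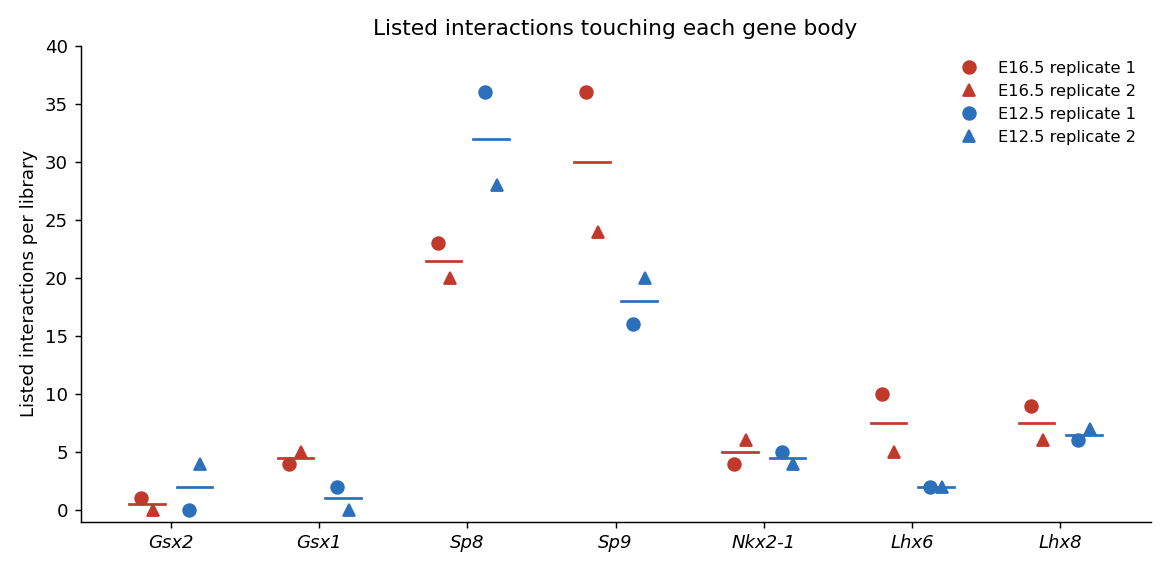
Listed interactions touching each gene body in each library (vertical axis, number per library), E16.5 in red to the left of E12.5 in blue, with circles for replicate 1, triangles for replicate 2 and a bar at the mean of the 2 libraries. The 2 E16.5 values of Sp8, 23 and 20, lie below its E12.5 values of 36 and 28, while the E16.5 values of Sp9, Lhx6 and Gsx1 lie above their E12.5 values.

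Sp8 lies on chromosome 12 (chr12:118846288-118852578, plus strand) and spans 2 bins. Its body had 23 and 20 listed interactions at E16.5, against 36 and 28 at E12.5. The groups did not overlap, and both E16.5 values were lower although the E16.5 lists were longer; raw numbers fell in this way in 3.39% of all genes tested. The mean was 21.5 ± 2.12 at E16.5 and 32 ± 5.66 at E12.5 (SD, n = 2 libraries each). Relative to the library total, the number was 2.66-fold lower at E16.5 (log2 change -1.41, SE 0.26, adjusted p = 0.00258 by edgeR). The supporting read pairs summed to 455 and 325 at E16.5 and 801 and 591 at E12.5. Each bin pair counts once, so a broad contact over neighbouring bins counts several times; with each cluster of neighbours counted once the log2 change was -0.30 and did not pass (adjusted p = 0.915, a setting under which edgeR called 0 of 1518 genes, 181 with an unadjusted p under 0.05). Without E12.5 replicate 1 it was -1.29 with an adjusted p of 0.240, where 0 of all genes passed (747 with an unadjusted p under 0.05), and by DESeq2 it was -1.37 with an adjusted p of 0.0506. Interactions at 4 of the 6 forebrain markers and at 3 of 5 tested midbrain and hindbrain markers also passed as lower relative to the library total. Of all genes tested, 3.49% passed as lower. In a fit of genes with a sum of at least 20 interactions, as Sp8 has, 164 of 2186 did. The part of these markers in the Sp8 result was not tested.

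All 53 distinct bin pairs of Sp8 pointed upstream of its start. The bin that holds the start had 16 and 12 listed interactions at E16.5 and 22 and 18 at E12.5. The second bin of the body had 7 and 8 at E16.5 and 14 and 10 at E12.5, so both bins of the gene were lower in raw number in both E16.5 libraries. The bin just upstream of the body held 4 and 2 interactions at E16.5 and 7 and 8 at E12.5, and the bin just downstream held 0 and 0 at E16.5 and 1 and 0 at E12.5. The partners fell on either side of Sp4, the next protein-coding gene upstream and a zinc finger gene of the same family. This division of the partners was chosen after their values were seen and carries no test. Between Sp4 and Sp8, 170 to 420 kb from the gene, where no partner bin overlapped a protein-coding gene, there were 12 and 11 interactions at E16.5, against 28 and 23 at E12.5, with 293 and 209 read pairs at E16.5 and 676 and 521 at E12.5. At Sp4 and beyond, 540 to 1000 kb from the gene, there were 11 and 9 interactions at E16.5 and 8 and 5 at E12.5, with 162 and 116 read pairs at E16.5 and 125 and 70 at E12.5. The raw numbers of the nearer interval were lower in both E16.5 libraries. In the farther one they were higher in both, as for most genes with the longer E16.5 lists, and its read pairs overlapped between stages.

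**Figure D2:**
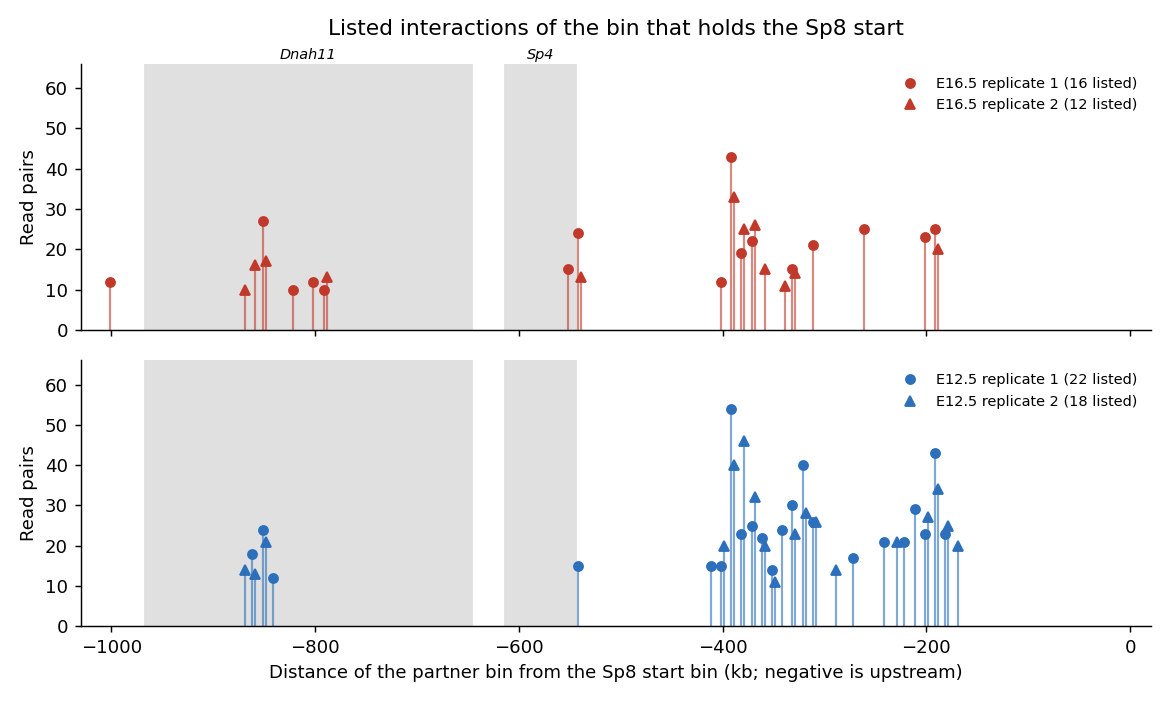
Read pairs of each listed interaction of the bin that holds the Sp8 start (vertical axis) against the distance of the partner bin in kb (horizontal axis, negative is upstream), with E16.5 above and E12.5 below, circles for replicate 1, triangles for replicate 2 and grey bands for the bodies of Dnah11 and Sp4. Within 420 kb of the start, partners are denser and mostly taller at E12.5, and the 850 kb contact inside Dnah11 stands at 27 and 17 read pairs at E16.5 and 24 and 21 at E12.5.

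Of the bin pairs of Sp8, 10 were listed in all 4 libraries, and 4 of them passed the threshold as lower at E16.5. Over all 6875 bin pairs listed in all 4 libraries, 4.58% were lower and 5.88% higher (10.5% either way), and the median log2 change was -0.01. The median of the 10 Sp8 contacts was -0.68, with 9 fitted below 0. The contact of the start bin with the bin at 118650001, 190 kb upstream, had 25 and 20 read pairs at E16.5, against 43 and 34 at E12.5. Both E16.5 values lay below both E12.5 values, as for 7.87% of all contacts, and relative to the library total the contact was 2.19-fold lower (log2 change -1.13, SE 0.27, adjusted p = 0.00321 by edgeR). The contact with the bin at 118510001, 330 kb upstream, had 15 and 14 read pairs at E16.5, against 30 and 23 at E12.5, and was 2.34-fold lower (log2 change -1.23, SE 0.29, adjusted p = 0.00419 by edgeR).

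The bin at 118460001 had fewer read pairs with both bins of the gene at E16.5. With the start bin, 380 kb away, it had 19 and 25 read pairs at E16.5, against 23 and 46 at E12.5, so the raw values overlapped (log2 change -1.01, SE 0.29, adjusted p = 0.0163 by edgeR). With the second bin it had 17 and 17 at E16.5, against 33 and 19 at E12.5 (log2 change -0.97, SE 0.29, adjusted p = 0.0253 by edgeR). These 2 contacts share a partner bin and neighbouring gene bins, so they are not separate measurements. Without E12.5 replicate 2 the first was -0.39 and did not pass (adjusted p = 0.670 by edgeR), and without E12.5 replicate 1 the second was -0.55 and did not pass (adjusted p = 0.574 by edgeR). Next to it, the bin at 118450001 formed the contacts with the most read pairs of all Sp8 bin pairs, summed over the libraries, and neither passed. With the start bin it had 43 and 33 read pairs at E16.5 and 54 and 40 at E12.5 (log2 change -0.67, adjusted p = 0.0758 by edgeR); it passed when contacts averaging under 20 read pairs were left out (adjusted p = 0.0469 by edgeR). With the second bin it had 55 and 26 at E16.5 and 32 and 29 at E12.5 (log2 change 0.04, adjusted p = 0.949 by edgeR). The contact of the start bin with the bin at 117990001 inside the axonemal dynein gene Dnah11, 850 kb away, had 27 and 17 read pairs at E16.5 and 24 and 21 at E12.5 (log2 change -0.39, adjusted p = 0.458 by edgeR).

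Relative to the authors' expected count, the differences were smaller. The observed over expected ratio of the 190 kb contact was 3.23 and 3.49 at E16.5 and 4.79 and 4.43 at E12.5, and that of the 330 kb contact was 3.24 and 3.87 at E16.5 and 4.86 and 4.63 at E12.5. With the expected count as an offset 0 of the 10 contacts passed, their median was -0.28 and 8 were fitted lower; edgeR then called 4 higher and 0 lower over all contacts, with 690 at an unadjusted p under 0.05. DESeq2 gave an adjusted p to 3 of the 10 and called 0 of them, and 1 to 3 of the 10 passed when 1 library was left out, 1 of them without E12.5 replicate 1 and 2 without E16.5 replicate 1. Without E12.5 replicate 1 the 190 kb and 330 kb contacts did not pass (adjusted p = 0.0888 and 0.130 by edgeR).

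**Figure D3:**
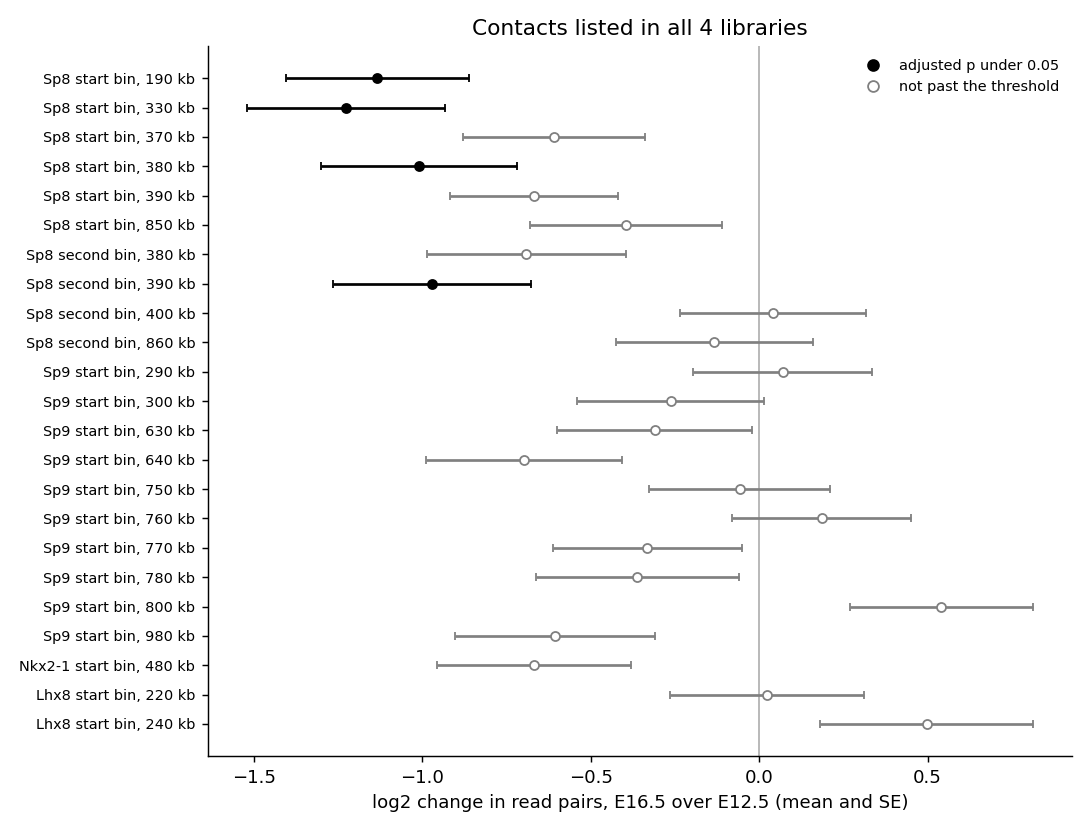
The log2 change in read pairs, E16.5 over E12.5, relative to the library total (horizontal axis, point and SE) for the 23 contacts of the members listed in all 4 libraries, one per line and named by the bin of the gene and the distance to the partner. Filled points passed an adjusted p of 0.05 by edgeR; these 4 are contacts of Sp8 at 190, 330, 380 and 390 kb, all below 0.

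Bin pairs listed in both libraries of a stage and in neither of the other numbered 1 at E16.5 and 6 at E12.5 among the 53 of Sp8. Of all 58543 listed bin pairs, 15.2% were listed in this way at E16.5, where the lists were longer, and 1.83% at E12.5. The 1 at E16.5 joined the start bin to the bin at 118050001 inside Dnah11, with 10 and 13 read pairs. At E12.5 the contact of the start bin with the bin at 118520001, 320 kb upstream, had 40 and 28 read pairs and was not listed at E16.5. The contact of the start bin with the bin at 118660001, 180 kb upstream, had 23 and 25 there, and that of the second bin with the bin at 118650001 had 25 and 17. Of all 53 bin pairs, 26 were listed in 1 library and so were not seen in a replicate. The median distance of Sp8 interactions was 400 and 405 kb at E16.5 and 370 and 355 kb at E12.5, a difference of 40 kb with an exact permutation p of 0.333 (two-sided), the smallest that 2 libraries against 2 allow.

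Sp9 had more listed interactions at E16.5 in raw number and none of its changes passed a test. Sp9 lies on chromosome 2 (chr2:73271926-73275771, plus strand) within 1 bin. It had 36 and 24 listed interactions at E16.5, against 16 and 20 at E12.5. The groups did not overlap, as for 3 of the 6 members tested (Sp9, Gsx1 and Lhx6) and for 64.5% of all genes tested, and the replicates differed by 12 interactions at E16.5. The mean was 30 ± 8.49 at E16.5 and 18 ± 2.83 at E12.5 (SD, n = 2 libraries each), and relative to the library total the log2 change was -0.11 (SE 0.31, adjusted p = 0.861 by edgeR). Its sign turned when E16.5 replicate 2 or E12.5 replicate 2 was left out, so no direction is given. The supporting read pairs summed to 794 and 461 at E16.5 and 318 and 380 at E12.5.

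Set against each other within a library, Sp8 had fewer interactions than Sp9 at E16.5 and more at E12.5. The ratio of Sp8 to Sp9 was 0.639 and 0.833 at E16.5, against 2.25 and 1.40 at E12.5. This ratio does not depend on the scaling of the libraries, and a difference in the number of bins cancels when stages are compared. The mean log2 ratio was lower by 1.28 at E16.5, and the exact permutation p was 0.333 (two-sided), the smallest possible for 2 libraries against 2. Counted per start bin, Sp9 had 36 and 24 at E16.5 and 16 and 20 at E12.5, and Sp8 had 16 and 12 at E16.5 and 22 and 18 at E12.5.

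All 42 bin pairs of Sp9 also pointed upstream, and they ran past a gene of its own family. Annotated starts of Sp3, a zinc finger gene related to Sp4, lay in the bins at 72970001 and 72980001. The nearer of these bins, 290 kb from Sp9, had 43 and 38 read pairs at E16.5, against 36 and 24 at E12.5 (log2 change 0.07, adjusted p = 0.912 by edgeR). The farther had 46 and 26 at E16.5, against 25 and 42 at E12.5 (log2 change -0.26, adjusted p = 0.621 by edgeR). Both contacts were listed in every library, and neither passed the test between stages. The contact with the most read pairs summed over the libraries was with the bin at 72510001, 760 kb upstream, with 59 and 32 read pairs at E16.5, against 32 and 30 at E12.5 (log2 change 0.19, adjusted p = 0.736 by edgeR). The bin at 72520001, beside it, had 34 and 34 at E16.5 and 24 and 31 at E12.5 (log2 change -0.06, adjusted p = 0.930 by edgeR).

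The start bin of Cdca7, a cell division cycle associated gene, lay 800 kb upstream of Sp9 and had 38 and 37 read pairs with it at E16.5, against 21 and 19 at E12.5. The raw values did not overlap, as for the 50.7% of all contacts that were higher in both E16.5 libraries, and the log2 change of 0.54 (SE 0.27) did not pass (adjusted p = 0.222 by edgeR). Of the 10 Sp9 contacts listed in all 4 libraries, 0 passed in either direction under any setting run, and the median log2 change was -0.29. Bin pairs in both libraries of a stage and in neither of the other numbered 5 at E16.5 and 1 at E12.5 among the 42 of Sp9, against the 15.2% and 1.83% of all bin pairs. The one with the most read pairs joined Sp9 to a bin inside Ola1, a gene for a GTP-binding protein 110 kb upstream, with 35 and 34 read pairs at E16.5 and no listing at E12.5. Its observed over expected ratio was 2.07 and 2.26 at E16.5, near the authors' limit of 2. The others of E16.5 with the most read pairs were the bins at 72620001, with 23 and 18, and at 72720001, with 16 and 18; the one of E12.5 was the bin at 72540001, with 10 and 12. The bin just upstream of Sp9, without its body, had 28 and 22 interactions at E16.5 and 9 and 11 at E12.5.

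**Figure D4:**
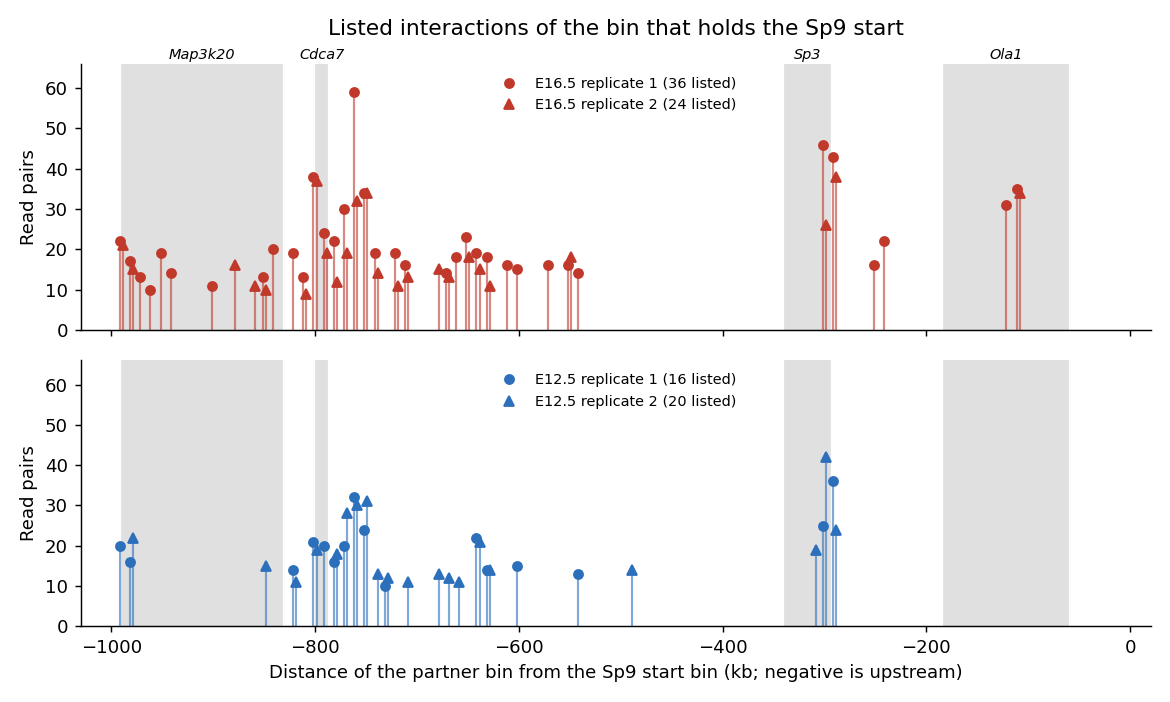
Read pairs of each listed interaction of the bin that holds Sp9 (vertical axis) against the distance of the partner bin in kb (horizontal axis, negative is upstream), with E16.5 above and E12.5 below, circles for replicate 1, triangles for replicate 2 and grey bands for the bodies of Map3k20, Cdca7, Sp3 and Ola1. Contacts at Sp3 and around Cdca7 appear at both stages, and those inside Ola1, at 110 and 120 kb, appear at E16.5.

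The 2 paralogs contacted paralogous neighbours, and the order of these contacts is the order of the genes along each chromosome. Going upstream, Sp9 contacted Sp3 and then Cdca7 on chromosome 2, and Sp8 contacted Sp4 and then Cdca7l on chromosome 12. The contacts of Sp8 with these neighbours were listed less often and with fewer read pairs than those of Sp9. The Sp4 start bin had 24 and 13 read pairs in all with Sp8 at E16.5 and 27 and none listed at E12.5, 540 to 550 kb away, whereas the Sp3 start bins had 89 and 64 with Sp9 at E16.5 and 61 and 66 at E12.5. Cdca7l was contacted in E16.5 replicate 1 alone, with 12 read pairs at its start bin 1000 kb away, at the limit of the distances listed. Dnah11, between Sp4 and Cdca7l, held 13 bin pairs of Sp8, with 7 and 7 interactions at E16.5 and 6 and 5 at E12.5. Map3k20, the stress kinase gene beyond Cdca7, held 11 bin pairs of Sp9, with 9 and 5 at E16.5 and 2 and 2 at E12.5.

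Nkx2-1, the medial eminence determinant, had few interactions and no change past the threshold. It lies on the minus strand of chromosome 12 (chr12:56531935-56536908) within 1 bin, which had 4 and 6 interactions at E16.5 and 5 and 4 at E12.5 (log2 change -0.68, SE 0.57, adjusted p = 0.545 by edgeR). The stages overlapped. Of its 11 bin pairs, 9 pointed downstream, 1 was listed in all 4 libraries and 6 in 1 library. The one in all 4, with the bin at 56050001, 480 kb downstream, had 10 and 15 read pairs at E16.5 and 16 and 15 at E12.5 (log2 change -0.67, SE 0.29, adjusted p = 0.283 by edgeR).

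At the far end of the Nkx2-1 contacts lay Brms1l, a gene for a component of a histone deacetylase complex. Its start bin at 55830001, 700 kb away, was listed with 11 and 10 read pairs at E16.5 and in neither E12.5 library. The next bin, inside the same gene, was listed with 13 and 18 read pairs at E12.5 and in neither E16.5 library. Contacts of both stages thus fell within 10 kb of each other, and the listing of single bins differed. The bin at 55880001 had 12 read pairs in E16.5 replicate 2 and 17 and 15 at E12.5, and the bin at 56450001, 80 kb downstream, had 35 in E12.5 replicate 1 alone. A second pair listed at E16.5 alone, with the bin at 56000001, had 10 and 9 read pairs. Of all bin pairs, 15.2% were listed in both E16.5 libraries alone and 1.83% in both E12.5 libraries alone. Start bins of other genes were listed once each: Mbip, 190 kb downstream, with 36 read pairs in E12.5 replicate 1, and Pax9, a paired box gene 160 kb upstream, with 21 in E16.5 replicate 2. The bin beyond the 3′ end of Nkx2-1, which holds none of its body, had 10 and 4 interactions at E16.5 and 13 and 10 at E12.5, more than the bin of the gene in 3 of the 4 libraries. Nkx2-1 is also expressed in thyroid and lung; of the markers of those organs, Pax8 and Sftpc were at 0 in every library and Foxa2, also a gene of the ventral midline of the brain, had 6 and 2 interactions at E16.5 and 9 and 5 at E12.5.

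Lhx6, which acts in postmitotic interneurons of the medial eminence, had more listed interactions in both E16.5 libraries, as did 64.5% of all genes tested. The difference did not pass. The gene lies on the minus strand of chromosome 2 (chr2:36081950-36105992) over 3 bins. It had 10 and 5 interactions at E16.5 and 2 and 2 at E12.5, with 447 and 132 read pairs at E16.5 and 60 and 38 at E12.5 (log2 change 1.03, SE 0.69, adjusted p = 0.383 by edgeR). The lower E16.5 value was nearer to the E12.5 values than to the other E16.5 library, and without E16.5 replicate 1 the log2 change was 0.41. All 13 of its bin pairs lay within 130 kb, the shortest range among the members with more than 10 interactions. None was listed in all 4 libraries or in both E12.5 libraries. Listed in both E16.5 libraries and neither E12.5 library were 3, as were 15.2% of all bin pairs. The start bin with the bin at 36010001, 90 kb downstream, had 32 and 37 read pairs at E16.5. The middle bin with the bin at 36200001 had 35 and 27 at E16.5. The 3′ bin with the bin at 36210001 inside Ptgs1, the cyclooxygenase gene 130 kb upstream, had 20 and 18 at E16.5. None of these 3 was listed at E12.5, where the listed pairs of Lhx6 were all upstream. Upstream, the start bin with the bin at 36200001 had 45 read pairs in E16.5 replicate 1 and 38 in E12.5 replicate 1. The start bin with the bin at 36070001, 30 kb downstream, had 62 in E16.5 replicate 1 alone. The pair with the most read pairs, 123 in E16.5 replicate 1, joined the 3′ bin to the start bin of Lhx6 itself, 20 kb apart, at 2.07 times its expected count.

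Lhx8, which acts in cholinergic neurons of the ventral forebrain, had all its listed contacts in one narrow region at both stages. The gene lies on the minus strand of chromosome 3 (chr3:154306288-154330560) over 4 bins. It had 9 and 6 interactions at E16.5 and 6 and 7 at E12.5 (log2 change -0.63, SE 0.46, adjusted p = 0.490 by edgeR), and the stages overlapped. All 11 bin pairs joined the gene to a stretch of 5 neighbouring bins 210 to 260 kb upstream, and 2 were listed in 1 library. The one with the most read pairs summed over the libraries joined the start bin to the bin at 154570001, at the 3′ end of Tyw3, a tRNA modification gene, with 52 and 19 read pairs at E16.5 and 25 and 14 at E12.5 (log2 change 0.50, SE 0.32, adjusted p = 0.352 by edgeR). Its higher E16.5 value came from 1 library, and without E16.5 replicate 1 the log2 change was -0.34, while without E16.5 replicate 2 it was 1.00 and passed (adjusted p = 0.0272 by edgeR). The contact with the bin at 154550001 had 19 and 15 read pairs at E16.5 and 14 and 12 at E12.5 (log2 change 0.02, adjusted p = 0.980 by edgeR). The start bin with the bin at 154540001 had 26 read pairs in E16.5 replicate 1 and 16 and 16 at E12.5. The bin at 154320001 with the bin at 154570001 had 22 and 22 at E16.5 and 12 in E12.5 replicate 2. Of its 11 bin pairs, 3 were in both E16.5 libraries and neither E12.5 library (15.2% of all bin pairs), and 0 the other way. These joined the start bin to the bin at 154560001 (17 and 24 read pairs) and the bin at 154310001 to the bins at 154570001 (12 and 17) and 154540001 (12 and 12). The median distance was 230 and 235 kb at E16.5 and 225 and 240 kb at E12.5.

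The Gsx genes had the fewest contacts in this set. Gsx1 lies on chromosome 5 (chr5:147188696-147190947, plus strand) over 2 bins and had 4 and 5 interactions at E16.5 and 2 and 0 at E12.5 (log2 change 1.25, SE 1.05, adjusted p = 0.491 by edgeR). The raw values did not overlap, and 64.5% of all genes tested were likewise higher in both E16.5 libraries. Without E12.5 replicate 2 the log2 change was 0.35, and without E12.5 replicate 1 no E12.5 interaction was left to compare with. Both of its bins contacted the bin at 146980001, 200 to 210 kb upstream, in both E16.5 libraries, with 27 and 13 read pairs for the start bin and 17 and 18 for the other. Neither was listed at E12.5, and 15.2% of all bin pairs were likewise listed in both E16.5 libraries alone. At E12.5, replicate 1 listed contacts with the start bin of Gtf3a, a transcription factor gene of RNA polymerase III, with 16 and 22 read pairs from the 2 bins of Gsx1. In E16.5 replicate 2 the start bin also had 42 read pairs with a bin 110 kb away that holds starts of both Lnx2 and Polr1d, which cannot be told apart.

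Gsx2 lies on chromosome 5 (chr5:75075601-75077893, plus strand) within 1 bin and had 1 and 0 interactions at E16.5 and 0 and 4 at E12.5. The replicates of each stage disagreed, so no direction can be read. All 4 bin pairs were 90 to 140 kb upstream, beyond Chic2, and 1 of them, with the bin at 74960001, was listed at both stages, with 26 read pairs in E16.5 replicate 1 and 24 in E12.5 replicate 2. The bins at 74980001, 74940001 and 74930001 had 26, 22 and 19 read pairs in E12.5 replicate 2 alone.

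Together the 7 genes had 143 distinct bin pairs, of which 23 were listed in all 4 libraries and 66 in 1. The partner bin overlapped no protein-coding gene in 87 of them (60.8%). Upstream partners made up 128, downstream partners 14 and contacts inside a gene 1. For 5 of the 7 genes (Gsx2, Gsx1, Sp8, Sp9 and Lhx8) every partner lay upstream. Of 4423 genes with a known strand and at least 4 bin pairs, 31.1% had upstream partners alone, and 63.5% had all partners on one side. Median distances separated the members: those of Sp9 were 730 and 745 kb at E16.5 and 755 and 720 kb at E12.5, those of Nkx2-1 615 and 535 kb at E16.5 and 480 and 570 kb at E12.5, and those of Lhx6 100 and 110 kb at E16.5 and 100 and 115 kb at E12.5. Over all listed interactions the medians were 300 and 290 kb at E16.5 and 260 and 260 kb at E12.5.

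**Figure D5:**
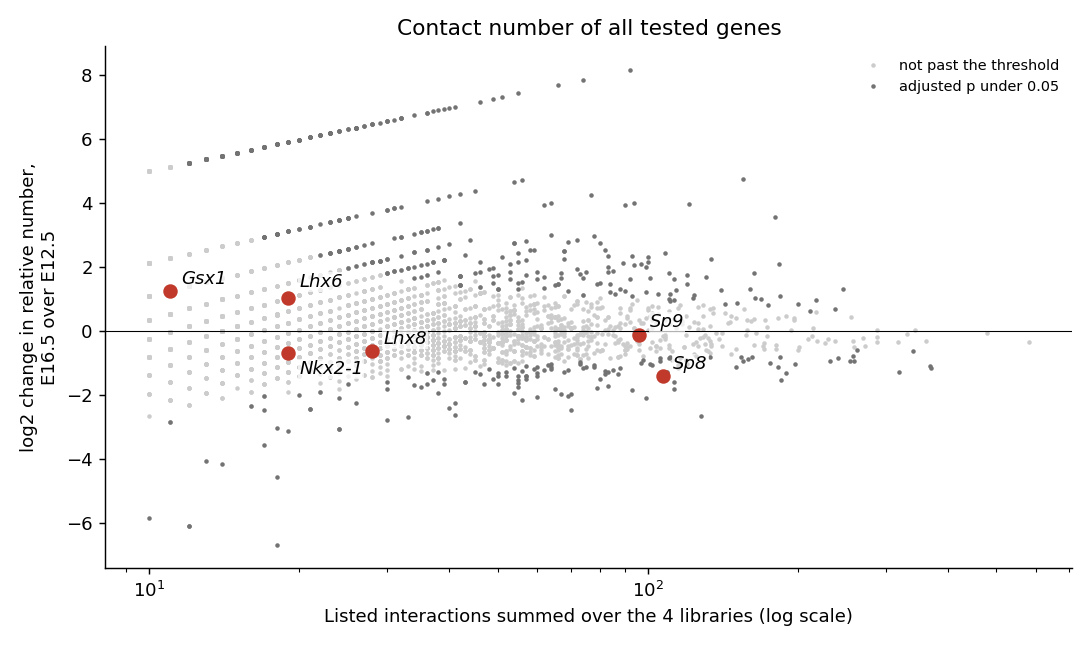
The log2 change in relative contact number, E16.5 over E12.5 (vertical axis), against the sum of listed interactions over the 4 libraries (horizontal axis, log scale) for the 4036 genes tested, with dark grey for an adjusted p under 0.05 by edgeR and red for the 6 members tested. Sp8 lies at -1.41 among the dark points below 0, and the other 5 members lie among the genes not past the threshold; the parallel lines of points are genes with few interactions at one stage.

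Other genes of the ventral telencephalon and of GABAergic neurons moved in both directions relative to the library total. Of 38 genes on this list, 31 were tested, of which 3 were higher at E16.5, 9 were lower and 19 did not pass, with a median log2 change of -0.55. Over all genes tested, 11.0% were higher and 3.49% lower, so the share lower on this list was above that of all genes. The share lower depends on the number of interactions: in a fit of genes with a sum of at least 20, 164 of 2186 were lower. The list was not matched to other genes by that number. The higher ones included Foxp1, a forkhead gene of striatal neurons, with 41 and 48 interactions at E16.5 and 15 and 7 at E12.5, and Zeb2, a gene of migrating interneurons, with 34 and 29 at E16.5 and 7 and 2 at E12.5. The third was Satb1, a gene of maturing interneurons, with 5 and 9 at E16.5 and 0 and 0 at E12.5. The lower ones, relative to the library total, included Dlx2, Six3, Sox6, Nr2f1, Nr2f2, Otx2, Gbx2 and Cxcr4. In raw number Sox6 was higher in both E16.5 libraries, with 93 and 90 against 79 and 78 at E12.5. Of the 31 tested, 16 were higher in raw number in both E16.5 libraries and 2 were lower in both. Over all genes tested these shares were 64.5% and 3.39%. Nr2f2, a nuclear receptor gene of the caudal eminence, had 29 and 14 interactions at E16.5 and 29 and 36 at E12.5, and Otx2 had 1 and 0 at E16.5 and 11 and 6 at E12.5. Of the Dlx genes with Six3 and Six6, 5 were tested and 2 were lower, with a median of -0.84: Dlx2 had 16 and 12 at E16.5 and 19 and 17 at E12.5, and Six3 had 68 and 55 at E16.5 and 64 and 67 at E12.5.

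Regulators of the dorsal pallium moved in both directions as well, relative to the library total. Of 18 genes, 17 were tested, 4 were higher at E16.5, 5 were lower and 8 did not pass, with a median log2 change of -0.54. Both shares were above those of all genes tested, 11.0% higher and 3.49% lower, to which this list was not matched by number of interactions either. In raw number 8 of the 17 were higher in both E16.5 libraries and 4 were lower in both. The higher ones included the neuronal genes Tbr1 (43 and 36 at E16.5 and 5 and 5 at E12.5), Neurod1 (9 and 15 at E16.5 and 0 and 0 at E12.5) and Neurod6 (34 and 21 at E16.5 and 0 and 0 at E12.5). The 5 lower ones were the progenitor genes Emx2, Pax6, Lhx2, Gli3 and Dmrta2, and Pax6 had 24 and 14 interactions at E16.5 and 41 and 34 at E12.5. No test compared these lists with the members. The lists share genes with the markers, so their calls are not separate. Gbx2 is also a midbrain and hindbrain marker here, and Six3, Emx2 and Lhx2 are also forebrain markers.

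Genes on other chromosomes with the most similar numbers were found by the Euclidean distance over the 4 scaled log2 numbers of a library each. Nearest to Sp8 were Hoxd3, a homeobox gene, with 26 and 20 interactions at E16.5 and 33 and 30 at E12.5 (distance 0.230), and Clybl, with 25 and 17 at E16.5 and 38 and 33 at E12.5 (distance 0.347). Nearest to Sp9 were Cux2, a homeobox gene of upper cortical layers, with 35 and 27 at E16.5 and 16 and 19 at E12.5 (distance 0.181), and Camk2n1 (distance 0.364). The nearest to Nkx2-1 was Tmem189, to Lhx6 they were Arsg and Clic4, and to Lhx8 2700081O15Rik and F12, at distances of 0.185 to 0.282. Gsx1 shared its 4 numbers with Bcl2l14 and Sirt2 exactly, a tie that 4 genes shared.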

How the data were processed

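The data were H3K4me3 PLAC-seq interactions of mouse fetal forebrain, 2 libraries at E16.5 and 2 at E12.5. Per the submitters' processing notes BWA, SAMtools and mm10 were used; the sources used here name no interaction caller. For each pair of 10 kb bins called in a library the authors deposited, per the file headers, its count of read pairs, the count expected by their model (a score), a q-value (FDR), and the size and −log10 p of its cluster. The deposited counts were used as they stand, over 19 autosomes.

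Gene bodies and starts came from RefSeq (GRCm38.p6; 16457 of 20665 genes had a strand). Contact number (genes with a sum of at least 10 interactions over the libraries) and contact strength (bin pairs listed in all 4) were tested across all features with edgeR 4.0.16 in R 4.3.3 (TMM, robust quasi-likelihood, stage as the term, Benjamini-Hochberg at 0.05). The SE is the log2 change over the root of F. The script was tested on simulated data. Depth is unknown, and the number of libraries limits precision. Distances were compared by an exact permutation test.

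The members, the lists (ventral telencephalon and GABAergic genes, dorsal pallium regulators, the Dlx, Six3 and Six6 genes, cell type markers) and the tests were chosen with earlier results of these data known. The text names all members, for each the 4 bin pairs with the most read pairs, every bin pair past the threshold, up to 3 bin pairs per stage listed in both its libraries and in neither of the other, the 2 genes nearest in number, and list genes past the threshold; a few genes that this rule picks are not reported here. Alternatives were DESeq2 1.42.0, scaling by the library total alone, other count filters, a quasi-dispersion of at least 1, lists of equal length, an FDR under 0.0001, gene ends, clusters counted once, read pairs, distances of at most 200 kb, distance classes, the expected count as offset, bin pairs in both libraries of either stage, the replicate block and each library left out.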

Additional observations from a re-analysis of the deposited data

How the results depend on the processing

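The Sp8 contact number stayed lower at E16.5 under every alternative run. It passed under 11, with log2 changes of -1.56 to -1.30, and missed the threshold under 5, with -2.01 to -0.30: DESeq2, clusters counted once, read pairs (adjusted p = 0.184), distances of at most 200 kb (adjusted p = 0.126) and without E12.5 replicate 1. Of its contacts in all 4 libraries, 1 to 5 passed as lower under the alternatives that called any, and 0 passed as higher under any run. Unknown depth and unequal lists limit every comparison of listed against unlisted pairs, and 2 libraries per stage limit the spread estimate; the causes of the changes below were not tested.

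Over all genes, calls of 443 higher and 141 lower became 70 and 27 with DESeq2 (2784 genes with an adjusted p), 171 and 91 with lists of equal length, 145 and 80 with an FDR under 0.0001, 126 and 33 within 200 kb, and 0 and 0 with clusters counted once (181 of 1518 at an unadjusted p under 0.05) or with read pairs (1566 of 9712). The library total alone gave 212 lower. With a library left out they were 0 to 275 higher and 0 to 115 lower, 0 without E12.5 replicate 1. Over all contacts, 404 higher and 315 lower became 59 and 39 with DESeq2 (2876 contacts with an adjusted p), 4 and 0 with the expected count as offset (690 at an unadjusted p under 0.05), and 132 to 317 higher and 142 to 220 lower with a library left out. With bin pairs in both libraries of either stage they became 8716 and 1195. That fit took in the 8910 bin pairs listed in both E16.5 libraries alone and the 1074 listed in both E12.5 libraries alone. The read pairs of these at the other stage are unknown. Calls from that fit thus cannot be told apart from differences in listing and are not measured changes in strength.

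Both stages share replicate numbers 1 and 2, which nothing in the labels ties to a litter or day; deviations of same-numbered libraries correlated at 0.08 (number) and 0.13 (strength). With the replicate number as a block, 249 genes were higher and 121 lower, 532 and 407 contacts were higher and lower, and Sp8 passed (log2 change -1.40). Among the members' contacts the block changed 1 call, that of the Sp8 start bin with 118450001, which then passed (adjusted p = 0.0329).

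Signs turned for values that had not passed as reported. The Lhx8 number was 1.26 with an FDR under 0.0001. With a library left out, the Sp9 number ran over -0.48 to 0.17. Over the same settings, contacts named by the partner bin ran over -0.33 to 0.11 (Sp8 second bin with 117990001), -0.54 to 0.44 (Sp8 second bin with 118450001), -0.26 to 0.52 (Sp9 with 72510001), -0.26 to 0.17 (Sp9 with 72520001), -0.67 to 0.19 (Sp9 with 72970001), -0.16 to 0.36 (Sp9 with 72980001), -0.10 to 0.14 (Lhx8 with 154550001) and -0.34 to 1.00 (Lhx8 with 154570001, which passed at 1.00 without E16.5 replicate 2, adjusted p = 0.0272). With the expected count as offset the first was 0.074 and Sp9 with 72970001 was 0.0058. With the library total alone Lhx8 with 154550001 was -0.0083.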
